A study of Mus musculus with 8 samples.

Results

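The insulin-like growth factor (IGF) system of the medial entorhinal cortex (MEC) is described here through 10 genes, taken as a list of names from the 38553 genes of the deposited RNA-Seq table. They are the ligands Igf1 and Igf2, the receptors Igf1r and Igf2r, and the binding proteins Igfbp2, Igfbp3, Igfbp4, Igfbp5, Igfbp6 and Igfbp7. The list was chosen with earlier results of these data known. All 10 symbols were found. Of the 10 genes, 9 had a mean of at least 1 FPKM over the 8 libraries and were tested together with all other genes above that level, 13674 in total. Each of the 9 also had a mean above 1 FPKM in dorsal and in ventral MEC taken separately, while Igfbp6 stayed below the limit, with a mean of 0.977 FPKM. FPKM is the number of fragments of a gene relative to the length of its exons and to the fragments mapped in the library, so that levels of different genes can be compared.

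IGF1 and IGF2 are secreted peptides that act mainly through the IGF1 receptor, a tyrosine kinase that signals through insulin receptor substrates to PI3-kinase, Akt and mTOR. The IGF2 receptor lacks such a kinase and carries IGF2 to lysosomes, and the binding proteins hold the ligands in the extracellular space until proteases release them. In the adult brain Igf2 is known as a gene of the leptomeninges, choroid plexus and blood vessels, whereas Igf1 is made by neurons, microglia and other cells.

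The study asked how gene expression differs between the dorsal and the ventral MEC, a brain area with cells that code for position, in which the scale of the spatial code grows from dorsal to ventral. Tissue was dissected from a single 400 µm sagittal slice of the right MEC of each of 13 male mice of the inbred strain C57BL/6JolaHsd at 8 weeks of age. The labels name no treatment and no engineered allele, and region is the only difference between the groups that they give. The paper reports multiplexed sequencing across lanes, and the lane of each library is not known here. The mice were pooled by 3 or 4, which gave 4 dorsal and 4 ventral libraries, each made from 120 ng of RNA by amplified cDNA synthesis, with RNA integrity numbers from 7.1 to 8.5. The replicates are therefore pools of animals, and the dorsal and the ventral pools came from the same mice.

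The columns of the FPKM table are headed with a D or a V and a number, and in 4 of the 8 columns the letter is that of the other region. Columns were assigned here so that their averages equal the region means in the authors' own comparison table. With D1, V1, D2 and V2 taken as dorsal, both averages matched within 0.1% for 13388 of 13400 genes, and the next best of the 70 possible splits matched 294 genes. The regions below thus rest on values and not on column names, and a dorsal library headed V1 is one that the table heads with V but that enters the dorsal mean. This split also follows the numbers in the headings, since D1, V1, D2 and V2 are dorsal and D3, V3, D4 and V4 ventral. What these numbers stand for is not stated, so a difference that they name could not be told apart from region. Values in dorsal MEC are always given in the order D1, V1, D2, V2 and values in ventral MEC in the order D3, V3, D4, V4. The relative depth of the libraries, read from 1714 genes with a mean below 0.1 FPKM, lay between 0.923 and 1.08 of the median library, and fragment totals were not used here. Markers of the tissue were present in every library, among them Slc17a7 of glutamatergic neurons and Reln of superficial entorhinal neurons. Of 9 choroid plexus markers 6 were nearly absent, with Otx2 at 0 in every library and Ttr, Folr1, Clic6, Aqp1 and Slc4a5 below a mean of 0.1 FPKM.

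Upstream sequence is given here for those members that were higher in ventral MEC and whose upstream window overlaps no annotated exon, because these genes are described together below. The windows are the 120 bases before a RefSeq start on GRCm38.p6, read 5′ to 3′ on the strand of the gene, and capitals mark the GC box GGGCGG. The Igfbp2 window is chr1:72824360-72824479 on the plus strand, and the Igfbp3 window is chr11:7213924-7214043 on the minus strand. Igf2 has several starts on the minus strand, of which the windows chr7:142657497-142657616 and chr7:142666817-142666936 are shown.
Igfbp2: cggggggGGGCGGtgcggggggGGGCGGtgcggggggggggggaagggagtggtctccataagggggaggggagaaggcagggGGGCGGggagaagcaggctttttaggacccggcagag
Igfbp3: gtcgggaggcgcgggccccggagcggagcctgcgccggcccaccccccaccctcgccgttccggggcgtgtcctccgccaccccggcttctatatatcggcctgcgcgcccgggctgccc
Igf2, inner start: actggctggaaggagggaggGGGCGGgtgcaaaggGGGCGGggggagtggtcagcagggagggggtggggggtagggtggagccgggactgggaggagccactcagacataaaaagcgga
Igf2, outer start: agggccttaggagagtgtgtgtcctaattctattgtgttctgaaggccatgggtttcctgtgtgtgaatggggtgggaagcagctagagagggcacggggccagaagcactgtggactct
GC boxes lay 113, 98 and 37 bases before the start of Igfbp2 and 100 and 85 bases before the inner start of Igf2, whereas the windows of Igfbp3 and of the outer Igf2 start held none of these letters within the bases shown. In the 250 bases before each start, the letters GGGCGG on either strand were found in 6 of the 14 windows of the 10 genes, against 32.7% of 32851 windows of all genes. The letters CCAAT were found in 3 of the 14 windows against 33.8%, and TATAAA in 2 against 12.4%, again on either strand. These matches describe the sequence and not the binding of any factor. The windows shown, from Igfbp2, Igfbp3 and Igf2, thus had none of these 3 exact strings of letters in common. No window of Igf1 or Igfbp5 is shown, and variants of the letters were not searched.

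The ligands were both higher in ventral MEC. IGF2 is the fetal growth factor that persists in the adult brain, and its gene lies at chr7:142650766-142666816 on the minus strand (GRCm38), 11840 bases from Ins2. Igf2 reached 34.3, 37.2, 38.0 and 37.0 FPKM in the dorsal libraries and 53.9, 52.4, 55.5 and 55.9 FPKM in the ventral libraries. The lowest ventral library stood 1.38 times above the highest dorsal one, and the libraries of a region lay close together, with SDs of 1.63 and 1.61 FPKM. The ventral mean of 54.4 FPKM was 1.49 times the dorsal mean of 36.6 FPKM, a log2 fold change of 0.56 ± 0.06 (SE, n = 4 libraries per region, adjusted p = 0.000775, limma with Benjamini-Hochberg adjustment). Here and below, log2 fold changes are those of FPKM + 1, ventral minus dorsal, a scale on which the change of a gene at low FPKM comes out too small. A gene was called at an adjusted p under 0.05 and a ratio of means beyond 20% in either direction. Exons of Igf2 overlap those of the antisense gene Igf2os and of the same-strand gene Gm49394, and fragments of these genes could not be separated here because strand-specific counting is not stated in the sources used.

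IGF1, the ligand that mediates much of the action of growth hormone, is encoded at chr10:87858265-87937042 on the plus strand. Igf1 was measured at 5.19, 4.85, 4.55 and 3.83 FPKM dorsally and at 6.16, 8.11, 9.13 and 9.37 FPKM ventrally. The groups did not overlap, although the ventral library headed D3 lay nearer to the dorsal libraries than to the other ventral ones. The ventral mean of 8.19 FPKM was 1.78 times the dorsal mean of 4.60 FPKM (log2 fold change 0.70 ± 0.13 SE, 95% interval 0.42 to 0.99, limma adjusted p = 0.014). The difference of Igf1 ranked 45 and that of Igf2 113 among the 198 genes called higher in ventral MEC, ordered by the ratio of means.

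Summed over both ligands, expression ranged from 39.5 to 42.6 FPKM in dorsal and from 60.1 to 65.3 FPKM in ventral MEC, with means in a ratio of 1.52. Igf2 made up most of this sum, at 6.60 to 9.66 times the level of Igf1 dorsally and 5.97 to 8.75 times ventrally. These ranges overlapped, so that the balance of the ligands did not separate the regions.

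The receptors were not called in either direction. The IGF1 receptor gene (chr7:67952827-68233668, plus strand) was expressed at 6.10, 6.17, 6.58 and 6.54 FPKM in dorsal and at 5.80, 6.56, 5.88 and 5.63 FPKM in ventral libraries. The regions overlapped through the ventral library headed V3, and the log2 fold change of Igf1r was -0.08 with a 95% interval from -0.24 to 0.08 (limma adjusted p = 0.667). For Igf2r (chr17:12682406-12769664, minus strand), which also carries lysosomal enzymes, the values were 4.65, 4.62, 5.12 and 4.69 FPKM dorsally and 5.21, 5.44, 5.39 and 4.78 FPKM ventrally. The groups overlapped again, through the dorsal library headed D2 and the ventral library headed V4, and the log2 fold change of Igf2r was 0.10 with a 95% interval from -0.06 to 0.27 (limma adjusted p = 0.549). These intervals leave room for differences of either receptor that are smaller than those of the ligands, and the lower bound of Igf1 lies above the upper bound of both receptors. The receptors summed to between 10.8 and 11.7 FPKM in dorsal MEC and to between 10.4 and 12 FPKM in ventral MEC. The ratio of Igf2r to Igf1r lay between 0.717 and 0.778 dorsally and between 0.830 and 0.917 ventrally, so that this ratio did not overlap between regions while neither gene was called. The ratio was not tested.

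**Figure D1:**
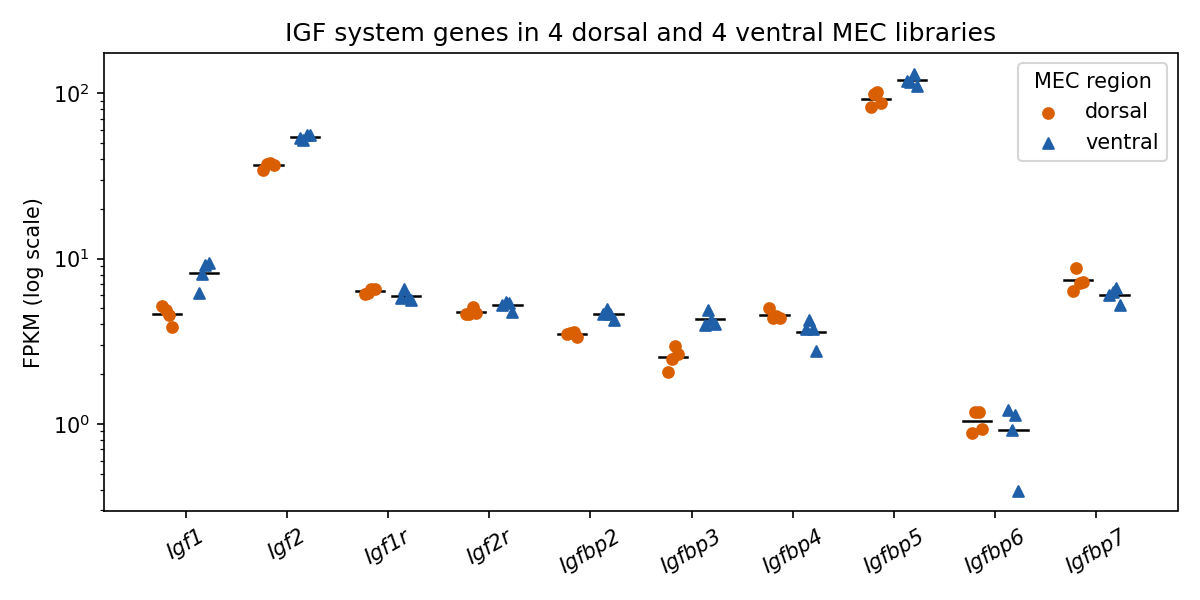
FPKM of the 10 IGF system genes on a log axis, with 1 point per library, circles for the 4 dorsal and triangles for the 4 ventral libraries, and a line at each mean. Igfbp5 and Igf2 stand above all other members, and the regions do not overlap for Igf1, Igf2, Igfbp2, Igfbp3, Igfbp4 and Igfbp5.

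Of the binding proteins, 3 were called higher in ventral MEC, and these were Igfbp2, Igfbp3 and Igfbp5. IGFBP5, which binds to extracellular matrix as well as to the ligands, had the most abundant transcript of the system. Igfbp5 reached 82.0, 98.2, 102 and 87.5 FPKM in dorsal and 118, 117, 131 and 111 FPKM in ventral libraries. The highest dorsal and the lowest ventral library of Igfbp5 differed by a factor of 1.09 only, in libraries headed D2 and V4. Its means of 92.4 ± 9.26 and 119 ± 8.28 FPKM (SD, n = 4) were in a ratio of 1.29 (log2 fold change 0.37 ± 0.08 SE, limma adjusted p = 0.0397). Among 8 fits that each dropped a single library, the Igfbp5 call remained in 1, the one without the dorsal library headed D2, and the log2 fold change stayed between 0.31 and 0.42 with adjusted p-values from 0.0437 to 0.102.

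IGFBP2 is a major binding protein of the cerebrospinal fluid, and its gene is the neighbour of Igfbp5. The genes lie tail to tail at chr1:72824503-72852474 on the plus strand (Igfbp2) and chr1:72857932-72874884 on the minus strand (Igfbp5), with 5458 bases between them. Igfbp2 was expressed at 3.51, 3.54, 3.59 and 3.35 FPKM dorsally and at 4.62, 4.96, 4.62 and 4.23 FPKM ventrally. All ventral libraries lay above all dorsal ones, and the dorsal libraries spread little, with an SD of 0.104 FPKM. The ventral mean of 4.61 FPKM was 1.32 times the dorsal mean of 3.50 FPKM (log2 fold change 0.32 ± 0.07 SE, limma adjusted p = 0.0445). This call was lost in each of the 8 fits with 7 libraries, in which the log2 fold change of Igfbp2 stayed between 0.29 and 0.35 and the adjusted p rose to between 0.0521 and 0.12. It was also lost when the libraries were rescaled to the same total FPKM (log2 fold change 0.36, limma adjusted p = 0.079).

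IGFBP3, the main carrier of IGFs in serum, is encoded at chr11:7206086-7213923 on the minus strand, 3540 bases from Igfbp1. Its transcript was measured at 2.07, 2.48, 2.95 and 2.63 FPKM in dorsal and at 3.96, 4.91, 4.28 and 4.02 FPKM in ventral libraries. The regions were separated by a factor of 1.34 between the highest dorsal and the lowest ventral library. The ventral mean of Igfbp3, 4.29 FPKM, was 1.69 times the dorsal mean of 2.53 FPKM (log2 fold change 0.59 ± 0.10 SE, 95% interval 0.36 to 0.81, limma adjusted p = 0.0118). The calls of Igf1, Igf2 and Igfbp3 remained in all 8 fits with 1 library dropped, with adjusted p-values up to 0.0462, 0.00509 and 0.0429 in the same order.

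The other binding proteins were not called, and their means were lower in ventral MEC. IGFBP4 binds the ligands until it is cleaved by pappalysin, and its gene (chr11:99041244-99054392, plus strand) was expressed at 5.005, 4.37, 4.51 and 4.37 FPKM dorsally and at 3.73, 4.24, 3.74 and 2.75 FPKM ventrally. The regions did not overlap for Igfbp4, but the gap between the dorsal library headed V1 and the ventral library headed V3 was small, and the log2 fold change was -0.28 ± 0.11 SE (95% interval -0.52 to -0.04 before adjustment, limma adjusted p = 0.229). IGFBP7, a protein of blood vessel walls that binds IGFs weakly, had 6.37, 8.79, 7.08 and 7.22 FPKM for its transcript dorsally and 6.04, 6.25, 6.67 and 5.25 FPKM ventrally. These values of Igfbp7 (chr5:77349240-77408041, minus strand) overlapped, with a log2 fold change of -0.24 ± 0.10 SE (limma adjusted p = 0.272), and its exons overlap those of Polr2b on the other strand. Igfbp6 (chr15:102144362-102149511, plus strand), whose protein prefers IGF2 over IGF1, had 0.875, 1.17, 1.18 and 0.928 FPKM dorsally and 1.22, 0.919, 1.13 and 0.395 FPKM ventrally. It overlapped widely, and in a fit without a minimum on FPKM its log2 fold change was -0.11 ± 0.15 SE (limma adjusted p = 0.79).

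Over the system, 5 of the 9 tested members were called higher in ventral MEC, against 1.45% of all 13674 tested genes, and 0 of 9 were called higher in dorsal MEC, against 2.15%. After rescaling of every library to the same total FPKM, which shifted the median of all fitted log2 fold changes to 0.04, 4 members were called ventrally, and all genes split into 201 called ventrally and 195 dorsally in place of 198 and 294. The libraries of the regions did not overlap for 6 of the 9 members, against 11.1% of all tested genes. The median log2 ratio of ventral to dorsal mean FPKM was 0.37 for the members and -0.01 for all tested genes. Because the members were chosen with earlier results of these data known, these contrasts with all tested genes describe the list and are no independent test of it. Igfbp4 and Igfbp7 had unadjusted limma p-values of 0.0265 and 0.0367 in the dorsal direction, so that the absence of dorsal calls is not a measurement that all members were level or higher ventrally.

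**Figure D2:**
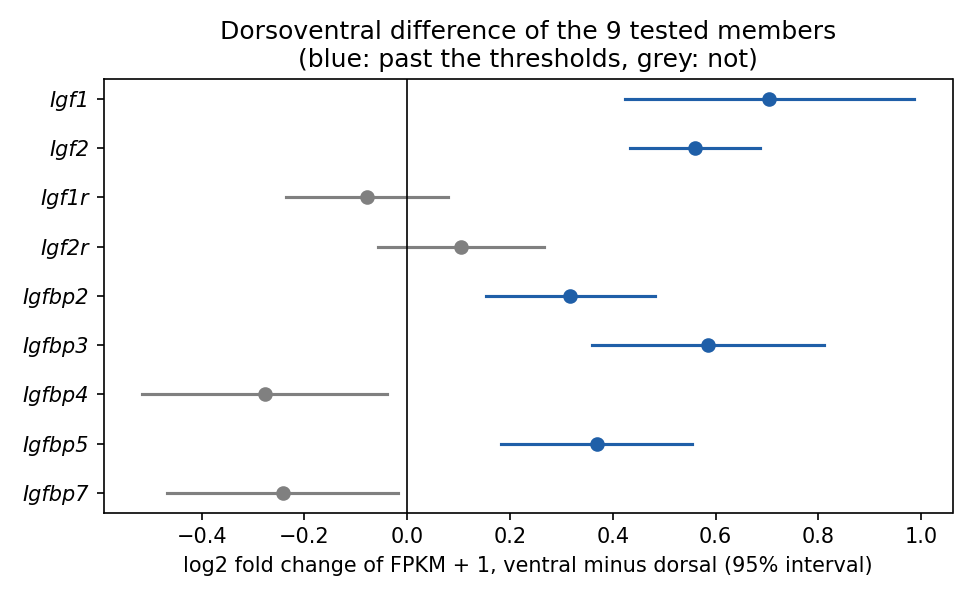
Log2 fold change of FPKM + 1, ventral minus dorsal, of the 9 tested members, with 95% intervals from limma over 4 dorsal and 4 ventral libraries. The 5 called members in blue lie between 0.32 and 0.70, both receptors have intervals across 0, and Igfbp4 and Igfbp7 lie at -0.28 and -0.24 and were not called after adjustment.

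By level over all 8 libraries, Igfbp5 came first at 106 FPKM and Igf2 second at 45.5 FPKM, and neither overlapped in range with the gene after it. Igfbp7 at 6.71, Igf1 at 6.40 and Igf1r at 6.16 FPKM followed, and these neighbours in the order overlapped in range. Igf1r exceeded Igf2r, at 4.99 FPKM, in all 8 libraries without overlap. The ranges of Igf2r and Igfbp4 (4.09 FPKM) overlapped, as did those of Igfbp4 and Igfbp2 (4.05 FPKM), and those of Igfbp2 and Igfbp3 (3.41 FPKM). Igfbp6 came last in every library. Together Igf2 and Igfbp5 held 77.5% to 79.7% of the summed FPKM of the 10 genes in dorsal and 80.4% to 82.4% in ventral libraries.

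The binding proteins summed to between 99.8 and 121 FPKM in dorsal and to between 128 and 151 FPKM in ventral libraries, with means in a ratio of 1.246. Igfbp5 made up 82.2% to 84.1% of this sum dorsally and 84.7% to 87.0% ventrally. Since the ligand sum differed more, the amount of binding protein transcript per ligand transcript was lower ventrally, at 1.96 to 2.34 against 2.53 to 2.85 dorsally, and these ranges did not overlap. The ratio was not tested, and it compares transcripts and not proteins.

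Around these members lies a wider signalling pathway, for which a list of 44 further genes was used, and 0 of its 32 tested genes were called in either direction by limma, with 6 at an unadjusted p under 0.05. Of all 13674 tested genes, 2191 had an unadjusted limma p under 0.05, and such counts of the lists below stand beside that share. Their median log2 ratio of ventral to dorsal mean FPKM was -0.02, 15 of the 32 had a higher ventral mean, and 3 had libraries that did not overlap. The log2 fold changes of the 32 genes ranged from -0.25 to 0.17.

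Extracellular partners were mostly low. Of 13 such genes only 4 were tested, and Igfbp1, Igfbpl1, Igfals, Ins1, Ins2 and Pappa had means below 0.1 FPKM, with Ins1 and Ins2 listed at 0 in every library. The most abundant were Ctsd, a lysosomal protease, at 73.8 ± 7.84 FPKM dorsally and 73.3 ± 6.54 ventrally (SD, n = 4), and Htra1, a secreted protease that cleaves binding proteins, at 17.9 ± 3.58 and 15.1 ± 2.42 FPKM. Stc2, whose product stanniocalcin inhibits the pappalysins, lay below the limit for testing and had 0.951 ± 0.33 FPKM dorsally against 0.315 ± 0.111 FPKM ventrally, with no overlap between the regions. Pappa2, a protease of IGFBP5 and IGFBP3, had 0.344 ± 0.0937 FPKM dorsally and 0.738 ± 0.309 FPKM ventrally and was not tested either. Both Stc2 and Pappa2 are named here after their values were seen.

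Among the other receptors and adaptors, 9 of 11 were tested. Grb14, an adaptor that inhibits insulin receptor signalling, was the most abundant at 32.3 ± 3.06 FPKM dorsally and 28.2 ± 1.95 ventrally, followed by its relative Grb10 at 15.6 ± 0.584 and 17.3 ± 1.65 FPKM. Insr, the insulin receptor gene, had 12.1 ± 0.499 and 11.3 ± 0.51 FPKM and is named after its values were seen. This is above the level of Igf1r in both regions. The PI3-kinase and Akt branch had 19 of 20 genes tested, among them Gsk3b, a kinase that Akt inhibits, at 142 ± 9.87 FPKM dorsally and 146 ± 6.23 ventrally. Pik3ca, which encodes a catalytic subunit of PI3-kinase, and Foxo1, a transcription factor that Akt inhibits, had libraries that did not overlap, with log2 fold changes of -0.11 and 0.17 and limma adjusted p-values of 0.411 and 0.288. Both are named because their regions did not overlap.

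**Figure D3:**
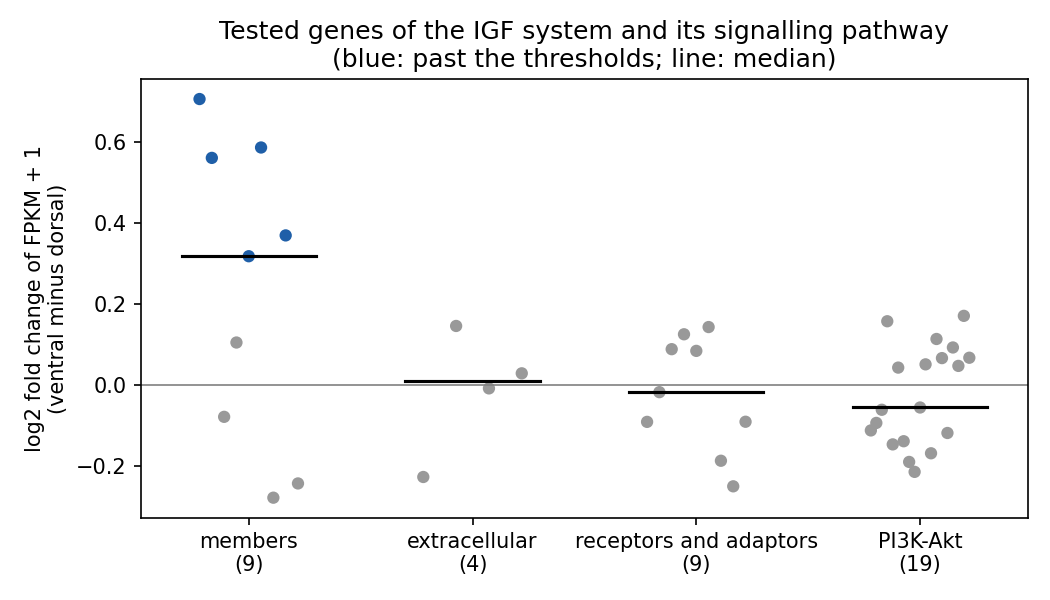
Log2 fold change of FPKM + 1, ventral minus dorsal, with 1 point per tested gene for the 9 members and for 4 extracellular, 9 receptor and adaptor and 19 PI3-kinase and Akt genes, and a line at each median. The medians are 0.32, 0.01, -0.02 and -0.06 in this order, and only members are called (blue).

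Genes that share a feature with Igf2 were also compared. The RNA-binding proteins named after Igf2 mRNA were low, with Igf2bp3 alone above the limit for testing (1.20 ± 0.107 and 1.14 ± 0.119 FPKM), and Igf2bp2 at 0.285 ± 0.113 and 0.208 ± 0.184 FPKM. Of 6 other imprinted genes, 4 were tested and 0 were called by limma. The 1 gene among them with an unadjusted p under 0.05, Cdkn1c, which encodes a cell cycle inhibitor, had 1.08 ± 0.334 FPKM dorsally and 1.68 ± 0.394 ventrally (limma adjusted p = 0.278). Peg3, a zinc finger gene, had 119 ± 8.15 and 113 ± 10.4 FPKM and Mest 29.5 ± 2.42 and 29.1 ± 0.866 FPKM in dorsal and ventral MEC. H19, which shares its imprinted domain and enhancers with Igf2, had a mean of 0.0341 FPKM.

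Since Igf2 and Igfbp2 are known from the leptomeninges, the membranes over the cortical surface, markers of these and other cells were summed in each library. The 16 leptomeningeal markers summed to 71.2 to 90.9 FPKM in dorsal and to 113 to 121 FPKM in ventral libraries, without overlap and with means in a ratio of 1.46, close in size to the ratio of 1.49 for Igf2. No marker of this list was at 0, 12 were tested, and 11 of these had a higher ventral mean, with a median log2 ratio of 0.41 over the 12. Of the 12, 7 had an unadjusted limma p under 0.05, and 2 were called higher in ventral MEC. The called ones were Dcn, a matrix proteoglycan, with 24.3 ± 4.43 FPKM dorsally and 48.4 ± 6.49 ventrally (limma adjusted p = 0.00246), and Aldh1a2, a retinoic acid synthesizing enzyme, with 4.58 ± 0.539 and 6.57 ± 0.181 FPKM (limma adjusted p = 0.0162). Mgp, second in level on this list, had 17.3 ± 4.34 and 19.5 ± 2.64 FPKM and was not called. Without Dcn the sums were 47.9 to 67.5 FPKM dorsally and 62.3 to 75.4 FPKM ventrally, which overlapped, with means in a ratio of 1.23. In tissue of mixed cells, fewer cells of a type and less RNA per cell cannot be told apart, and the part of leptomeningeal tissue in the ligand and binding protein differences was not tested.

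**Figure D4:**
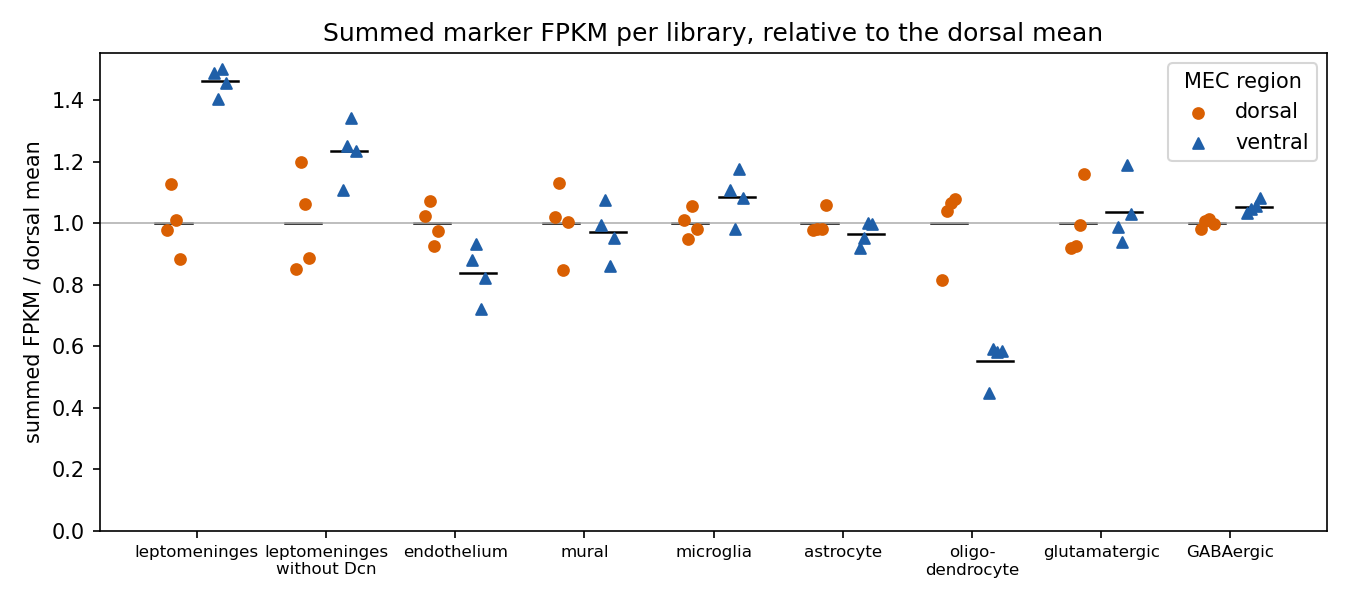
Summed FPKM of marker lists in each library, divided by the mean of the 4 dorsal libraries, with circles for dorsal and triangles for ventral libraries and a line at each mean. Leptomeningeal sums have a ventral mean of 1.46 with Dcn and 1.23 without it, and oligodendrocyte sums one of 0.55.

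Relative to the leptomeningeal sum, Igf2 amounted to 40.9% to 52.0% in dorsal and 44.9% to 47.7% in ventral libraries, with means in a ratio of 1.01. Taken against the sum without Dcn, the share of Igf2 was 55.2% to 74.3% dorsally and 73.5% to 86.5% ventrally, with means in a ratio of 1.19. Igfbp2 amounted to 3.89% to 4.70% and 3.61% to 4.38% of the full sum in dorsal and ventral libraries. The ratio of its mean shares was 0.90, and 1.05 without Dcn. Igfbp3 amounted to 2.63% to 3.69% and 3.30% to 4.34% of the full sum, but against the sum without Dcn its share did not overlap between regions and was 1.36 times as large ventrally. The corresponding ratio for Igf1 was 1.22 with Dcn and 1.41 without it, with overlap in both cases, and that for Igfbp5 was 0.88 and 1.04. Against the full sum, the shares of all 5 called members overlapped between regions. Those of Igf1r, Igf2r, Igfbp4, Igfbp6 and Igfbp7 did not overlap, with ratios from 0.54 for Igfbp4 to 0.74 for Igf2r. Without Dcn, of these uncalled genes only Igfbp4 and Igfbp7 stayed apart. The ratios thus depended on whether Dcn was counted, and the source of the transcripts was not tested.

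Other cell types were read in the same way, and some of their markers were higher ventrally and others dorsally. Microglial markers, with 0 of 11 called by limma and 2 at an unadjusted p under 0.05, summed to 102 to 114 FPKM dorsally and 105 to 126 FPKM ventrally, and endothelial markers, with 0 of 9 called and 2 under 0.05, to 37.4 to 43.4 and 29.1 to 37.6 FPKM. Mural markers summed to 51.3 to 68.4 and 52.2 to 65.2 FPKM, with Vtn as the only one of 6 tested that was called, in the ventral direction. Choroid plexus markers summed to 5.43 to 6.65 FPKM dorsally and 5.36 to 8.17 FPKM ventrally, which overlapped, with means in a ratio of 1.23. Of the 3 with a mean above 0.1 FPKM, Kl and Kcnj13 were tested and not called by limma, with 0 at an unadjusted p under 0.05. The third, Prlr, the prolactin receptor gene, lay below the limit for testing and had 0.0804, 0.208, 0.166 and 0.284 FPKM dorsally and 0.718, 1.14, 0.549 and 1.2 FPKM ventrally, without overlap. Astrocyte markers, with 0 of 9 called and 3 at an unadjusted p under 0.05, summed to 887 to 963 FPKM dorsally and 834 to 907 FPKM ventrally.

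Of the neuronal lists, GABAergic markers summed to 208 to 215 FPKM in dorsal and 219 to 229 FPKM in ventral libraries, without overlap but with 0 of 6 genes called by limma and 4 at an unadjusted p under 0.05. Among interneuron subclass genes, Sst and Calb2 were called higher ventrally and Pvalb and Npy higher dorsally. Glutamatergic markers summed to 601 to 758 and 614 to 778 FPKM, with Slc17a6 called higher dorsally, and among genes of entorhinal neurons Calb1 was called higher ventrally and Wfs1 higher dorsally. All 8 oligodendrocyte markers were called higher in dorsal MEC, their sums being 851 to 1126 FPKM dorsally and 468 to 615 FPKM ventrally. The part of these other cell types in the differences of the IGF genes was not tested.

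For each called member, the tested genes with the most similar profile over the 8 libraries were listed, by Pearson's r of log2(FPKM + 1). These correlations describe the 8 libraries only, all points share the contrast between regions and the scaling of the libraries, and no test was made. Closest to Igf2 were Camkv, A730017C20Rik, Nts, Tmem255a and Oxtr, with r from 0.989 to 0.983, and closest to Igf1 were Ppm1f, 5930403N24Rik, Vmn2r29, Add3 and Arhgap25, with r from 0.985 to 0.954. The profile of Igfbp2 was most like those of Scn3b, Gria1, Syt10, AL513014.1 and Rps6ka6 (r from 0.982 to 0.973), and that of Igfbp3 like those of Gsg1l, Cabp7, Dscaml1 and Ivd (r from 0.984 to 0.954). Igfbp5 was closest to Fn1, Gtf2f1, Lypd1, Tcof1 and Arhgap33 (r from 0.981 to 0.968). No leptomeningeal marker and no other member appears in these lists, but only 12 leptomeningeal markers were among the 13674 tested genes. With the leptomeningeal sum, r was 0.89 for Igf1, 0.948 for Igf2, 0.92 for Igfbp2, 0.863 for Igfbp3 and 0.907 for Igfbp5. With the GABAergic sum, r was 0.892, 0.922, 0.767, 0.873 and 0.828 in the same order. About the region means, r with the leptomeningeal sum was 0.301, 0.252, 0.184, -0.152 and 0.542. Without Dcn in that sum, these values were 0.412, 0.571, 0.237, 0.444 and 0.782. The GABAergic sum gave 0.51, 0.748, -0.43, 0.343 and 0.294 about the region means. Between pairs of called members r lay between 0.776 for Igf1 with Igfbp5 and 0.94 for Igf2 with Igfbp3.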

How the data were processed

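RNA-Seq was performed by the authors on 4 dorsal and 4 ventral MEC libraries. Per the labels, the submitters' processing notes name CASAVA 1.8, TopHat2 2.0.8 and Cuffdiff, and the study's methods give Ensembl release 73. The build was read here as GRCm38, since the deposited loci of all 10 members overlap those genes in GENCODE M21. The deposited values are FPKM per gene and library, as scaled by the authors with Cuffdiff 2, and no fragment counts were used. The authors' fold changes, test statistics, p-values and q-values were not used, nor were 4 columns of per-sample values in a table of fragment estimates whose entries could not be tied to single samples. Relative depth was estimated as the inverse of the median nonzero FPKM of 1714 genes with a mean below 0.1 FPKM.

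Genes with enough alignments by the authors' mark (14989 of 38553) and a mean of at least 1 FPKM were compared between regions on log2(FPKM + 1) with limma 3.58.1 in R 4.3.3, letting the prior variance follow mean expression. Calls required p under 0.05 after Benjamini-Hochberg adjustment over 13674 genes, and region means whose log2 ratio exceeded 0.263 in size. On simulated data for this comparison, with 200 of 13674 genes changed, the fit called 165 of them when 1 region was set 100% above the other, 91 at 50% and 0 at 25%, with 9, 5 and 0 further calls, and it made 0 calls in data without any change. Each simulated setting was drawn a single time, with genes drawn independently and no effects shared by the genes of a library. The simulation therefore does not give the rate of false calls in the real libraries. The limits on FPKM and ratio are those of the study, which tested alignments with Cuffdiff 2. No counting interval can be given from FPKM alone, so precision rests on the spread of 4 pools per region. Tables and plots were made with Python 3.11.15, NumPy 2.4.6, SciPy 1.17.1, pandas 2.3.3 and matplotlib 3.10.9.

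Members and gene lists were chosen with earlier results of these data known. All members are named, and beside them called genes of the other lists, the 2 genes of each pathway list with the highest mean FPKM and, for called members, the 5 genes with the most similar profile. A few genes that this rule takes are left out. Positions come from GENCODE M21 (GRCm38), and upstream sequences from RefSeq (GRCm38.p6), where all 10 members were found. The alternatives covered the pseudocount, the filters, the ratio threshold, rescaling to 1 total, quantile normalization, sample quality weights, the regions of the headers and leaving out each library.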

Additional observations from a re-analysis of the deposited data

Results flagged for a closer look

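Within each region, the 4 libraries were checked for a single value far from the other 3, in the members and in the marker sums. Chance alone sets apart about 1 in 20 such groups, 60 groups were checked, and 5 values stood apart. Igf2r was highest in the dorsal library headed D2, at 5.12 FPKM, while the other dorsal libraries lay between 4.62 and 4.69 FPKM. The choroid plexus sum of 5.36 FPKM in the ventral library headed D3 was below those of the other ventral libraries, which started at 7.83 FPKM. The astrocyte sum of 963 FPKM in the dorsal library headed V2 was the highest of its region. Oligodendrocyte sums were lowest at 851 FPKM in the dorsal library headed D1 and at 468 FPKM in the ventral library headed D3. The ventral library headed D3, which has 2 of these 5 values, also had the lowest ventral Igf1, at 6.16 FPKM, and without it the log2 fold change of Igf1 was still called. The part of cell content in these values was not tested.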

How the results depend on the processing

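The calls of Igf1, Igf2 and Igfbp3 held under every alternative of pseudocount, filter, threshold, scaling and weights in which the gene was tested, and the members called dorsally stayed at 0 throughout. A minimum of 5 FPKM left 3 members called ventrally, because Igfbp2 and Igfbp3 were not tested there. Igfbp5 missed the threshold with all alignment statuses kept (adjusted p = 0.0502). Leaving out each library gave 3 to 4 members and 91 to 191 genes called ventrally and 157 to 341 genes dorsally. Dropping V1 from the dorsal libraries gave 91 ventral and 157 dorsal calls, and dropping D3 from the ventral ones gave 91 and 163. Ventral counts were 123 without D2 and 121 without D4, and the dorsal count was 189 without V2. Rescaling to 1 total FPKM gave 195 genes called dorsally and 201 ventrally, against 294 and 198, and quantile normalization 280 and 211.

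With the regions as the headers name them, 0 members, 0 genes ventrally and 1 gene dorsally were called. The number at an unadjusted limma p under 0.05 was 2191 of 13674 genes with the regions used here and 721 under the headers. The log2 fold changes then turned to 0.0266 for Igf1r, -0.0509 for Igf2r, -0.0217 for Igfbp2, -0.0512 for Igfbp5 and 0.046 for Igfbp7. Those of Igf1, Igf2 and Igfbp3 fell to 0.0252, 0.0116 and 0.0604, and that of Igfbp4 was -0.0966. With only the 4 libraries whose headers name the region used here, 0 members and 0 genes were called in either direction by limma, against 1240 of 13661 genes at an unadjusted p under 0.05. There the fold changes were 0.73 for Igf1, 0.57 for Igf2, 0.30 for Igfbp2, 0.65 for Igfbp3 and 0.32 for Igfbp5, each in the direction of all 8 libraries. Fewer libraries enter that fit. The headers put equal numbers of dorsal and ventral libraries, as assigned here, into each group. A difference between these regions therefore averages out under the headers, and no other cause of the changes was tested.

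No paired analysis was possible because the labels carry no replicate numbers and the columns cannot be tied to single groups of mice, although dorsal and ventral pools share their mice. Depth in fragments is not given here, so low members such as Igfbp6 have no counting interval.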
